A study of Mus musculus with 16 samples.

Results

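The Schlafen family was followed gene by gene in RNA of epithelial cells sorted from the distal colon of mice. Its 7 members here, Slfn1, Slfn2, Slfn3, Slfn4, Slfn5, Slfn8 and Slfn9, were taken by gene symbol from 22396 symbols that were listed in both deposited tables. The family was singled out with results of these same libraries in view, among them the difference of Slfn4 between genotypes after injury. Genotype differences after injury are therefore given as a description, without a test.

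RNA-seq covered 16 mice. After dextran sulfate sodium (DSS), a drinking-water agent that ulcerates the colon, there were 3 control mice of genotype Tnfr2-f/f and 4 mice labelled Vil1::Cre;Tnfr2-f/f, and under plain water there were 4 controls and 5 mice labelled with the knockout genotype. All groups carried the floxed Tnfr2 allele, and Cre was driven by the Vil1 (villin) promoter, which is active in intestinal epithelium. The labels give 3% DSS for 6 days with dissection at day 12, whereas the methods of the study give 3.5% and an age of 8 weeks, and in the DSS arm the injured regions were dissected out. The water arm was 4 males of cage a and 5 females of cage b, the DSS arm 7 females of cages c and d, so treatment cannot be told apart from cage.

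Values are TPM, the abundance of a transcript after correction for its length, scaled between libraries by the authors and summed over the listed transcripts of a gene. The targeted gene Tnfrsf1b, which encodes TNF receptor 2, was at 13.9 ± 2.06 TPM in water-treated controls (SD, n = 4) and 11.8 ± 2.30 in water-treated mice labelled knockout (n = 5), and after DSS at 16.5 ± 4.95 (n = 3) and 18.4 ± 6.02 (n = 4). By the methods of the study the loxP sites flank exon 2, which takes up 103 of 3818 bases (2.70%) of the listed transcript (chr4:145229004-145229106, GRCm38), so these whole-transcript values do not test its loss. Genotype is used below only as labelled. The epithelial marker Epcam was between 566 and 1017 TPM in all mice, but transcripts of other cells were present as well. The summed level of 11 myeloid markers was 1267 to 2879 TPM in water-treated mice against 86.4 to 188 after DSS, and that of 6 neutrophil markers was 10.2 to 29.2 against 49.8 to 1929. After DSS the neutrophil sum was mostly S100a8 and S100a9 (means of 247 and 261 TPM). Retnlg (mean of 22.7 against 7.62 in water), Cxcr2 (1.83 against 0.344) and Csf3r (3.08 against 2.72) overlapped between treatments. Mpo was listed at 0 in all 7 DSS-treated mice. In bulk RNA, fewer cells of a type and less RNA per cell cannot be told apart.

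Schlafen genes (from the German for "to sleep") were named for genes that slow the growth of thymocytes. Most are induced by interferons, which act through the JAK and STAT proteins and IRF9 on interferon-stimulated response elements in promoters. The mouse family has short members (Slfn1, Slfn2), intermediate members (Slfn3, Slfn4) and long members (Slfn5, Slfn8, Slfn9), of which the long ones carry a helicase-like domain at the carboxyl end. They are best known from T cells, macrophages and other myeloid cells, and Slfn3 has been studied in the differentiation of enterocytes.

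All 7 genes lie in a single cluster on chromosome 11. By GENCODE M21 on GRCm38 the cluster spans chr11:82951349-83215154, which is 263806 bases. Slfn5 (82951349 to 82964840, plus strand) comes first, followed by Slfn9 (82978390 to 82991830) and Slfn8 (83002158 to 83020810) on the minus strand, and then by Slfn2 (83065112 to 83070678), Slfn1 (83116849 to 83122670), Slfn4 (83175186 to 83190216) and Slfn3 (83191330 to 83215154) on the plus strand. Slfn4 and Slfn3 are 1113 bases apart.

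The promoter letters differed between the long members and the others, and the stretches that show this are printed here. Promoter windows of RefSeq on GRCm38.p6, 250 bases before to 50 after a start, were found for all 7 members in 8 windows, because Slfn8 has more than 1 start. The core of the interferon-stimulated response element (GAAA, any 2 bases, GAAA, on either strand) was present in 3 of 7 members (Slfn5, Slfn8 and Slfn9) and in 3.44% of all 32851 promoter windows. That of Slfn5 lies inside the longer gene span of GENCODE and is not shown. The matches of Slfn8 and Slfn9 stand in closely alike surroundings. Both are shown 5′ to 3′ on the minus strand of the genome, chr11:83020829-83020878 for Slfn8 and chr11:82991846-82991895 for Slfn9, with the match, which reads as the reverse complement of the core, in capitals:
Slfn8: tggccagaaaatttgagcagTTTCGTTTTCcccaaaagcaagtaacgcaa
Slfn9: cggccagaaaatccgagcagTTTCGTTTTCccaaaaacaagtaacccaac

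The short and intermediate members held no match to that core in these windows. They shared another run of letters, ACTTCCTGG, which was picked out after the sequences had been seen. It was present in 4 of 7 members (Slfn1, Slfn2, Slfn3, Slfn4) and in 0.843% of all windows, and no member window held both. The stretches printed are on the plus strand, at chr11:83116726-83116774 for Slfn1, chr11:83065037-83065085 for Slfn2, chr11:83191268-83191316 for Slfn3 and chr11:83175093-83175141 for Slfn4, with the shared run in capitals:
Slfn1: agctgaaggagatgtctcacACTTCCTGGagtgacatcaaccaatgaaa
Slfn2: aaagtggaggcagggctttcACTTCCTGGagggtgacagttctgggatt
Slfn3: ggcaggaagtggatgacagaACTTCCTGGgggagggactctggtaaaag
Slfn4: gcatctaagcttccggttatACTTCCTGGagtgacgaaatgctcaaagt

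A STAT site (TTC, any 3 bases, GAA, in 8.30% of all windows) and an NF-kB site (GGGA, any 2 bases, TTCC, in 1.47%) were searched on both strands as well, and 0 of 7 members held either. A match of letters is a description of the sequence, and no factor binding was measured.

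Because the members are related, reads of 1 gene can also match another. Of all 31-base windows of a transcript, the share found in no other gene was 98.0% for Slfn1 and 89.2% for Slfn2, but 58.3% for Slfn3, which shared 28.9% of its windows with Slfn4. For the longer listed transcript it was 78.8% for Slfn4, 85.8% for Slfn5, 72.0% for Slfn8 and 75.6% for Slfn9. Slfn8 and Slfn9 each shared windows with the other and with the pseudogene Slfn10-ps, which was not analysed here. Slfn5 overlaps the antisense gene Slfn5os, also not analysed here, in a stranded library.

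Of the family, 4 genes were measured at a mean of 1 TPM or more: Slfn2, Slfn4, Slfn5 and Slfn9. In water-treated controls Slfn4 (25.6 ± 16.3 TPM, SD, n = 4) and Slfn2 (25.5 ± 1.32) stood highest and did not differ from each other beyond their spread. Slfn9 (5.49 ± 0.941) and Slfn5 (4.41 ± 1.25) followed, again within their spread of each other. Slfn8, Slfn3 and Slfn1 remained below 1 TPM in every water-treated mouse. After DSS the order was another. In DSS-treated controls Slfn4 led with 49.9 ± 15.8 TPM (n = 3), Slfn9 came second with 15.3 ± 6.69, and Slfn2 was at 6.06 ± 5.71, within its spread of Slfn5 at 3.86 ± 3.10.

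**Figure D1:**
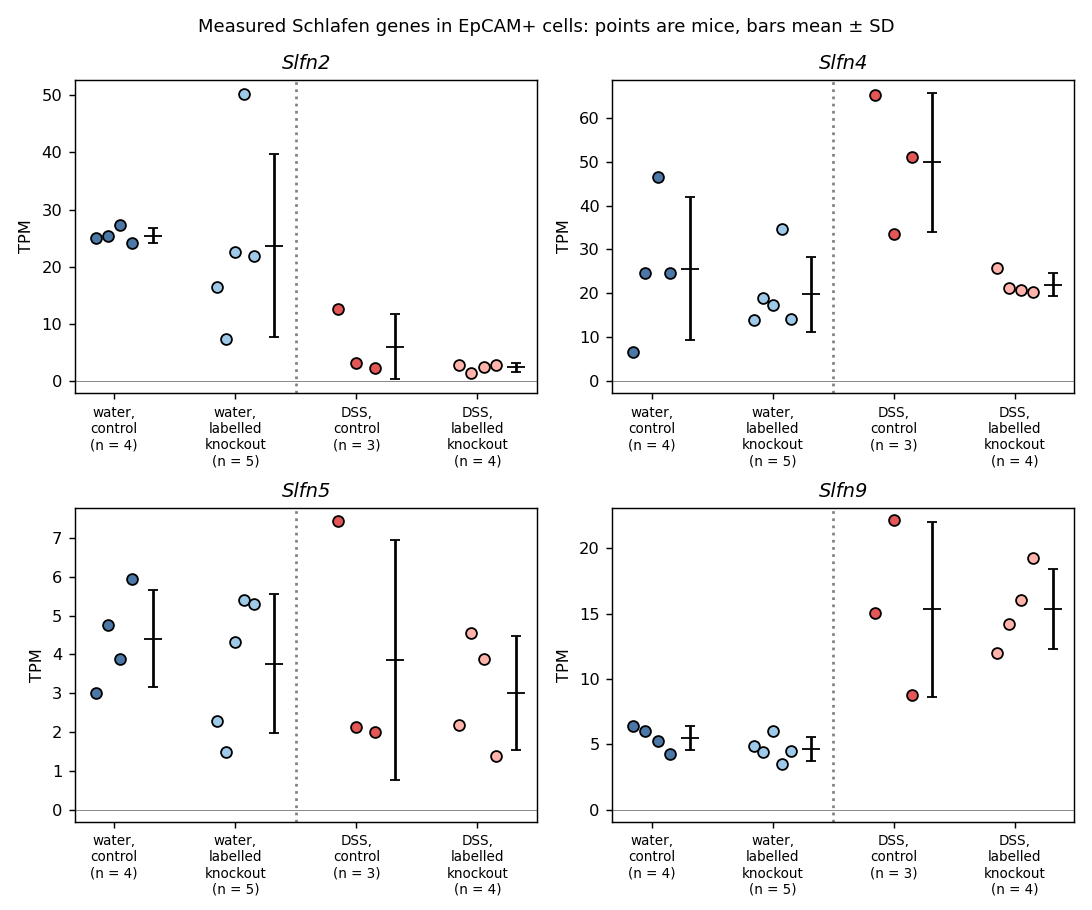
TPM of Slfn2, Slfn4, Slfn5 and Slfn9 (y axes, linear) in each mouse, by treatment and labelled genotype (x axes), with mean ± SD beside the points; the dotted line separates the tables that were normalized apart. Slfn4 of the DSS-treated controls (33.5 to 65.1 TPM) lies above that of the DSS-treated mice labelled knockout (20.3 to 25.8), and Slfn9 of every DSS-treated mouse lies above that of every water-treated mouse.

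The make-up of the family signal within a mouse, which does not depend on the scaling of the tables, held more Slfn2 in water-treated and more Slfn9 in DSS-treated mice. Slfn2 made up 22.6% to 59.8% of the summed Schlafen TPM in the 9 water-treated mice and 3.27% to 12.3% in the 7 DSS-treated mice. Slfn9 made up 3.69% to 15.4% and 13.6% to 43.7%, respectively. Slfn4 made up 16.03% to 57.9% in water-treated mice and 46.0% to 79.1% after DSS. The ranges of the share of Slfn2 did not overlap between the treatments, whereas those of Slfn9 and Slfn4 did. A share also moves with the other members. In TPM itself Slfn2 overlapped between the treatments and Slfn9 did not. The summed signal itself was 32.6 to 94.5 TPM in water-treated mice, 61.1 to 103 TPM in DSS-treated controls and 41.4 to 44.0 TPM in DSS-treated mice labelled knockout.

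**Figure D2:**
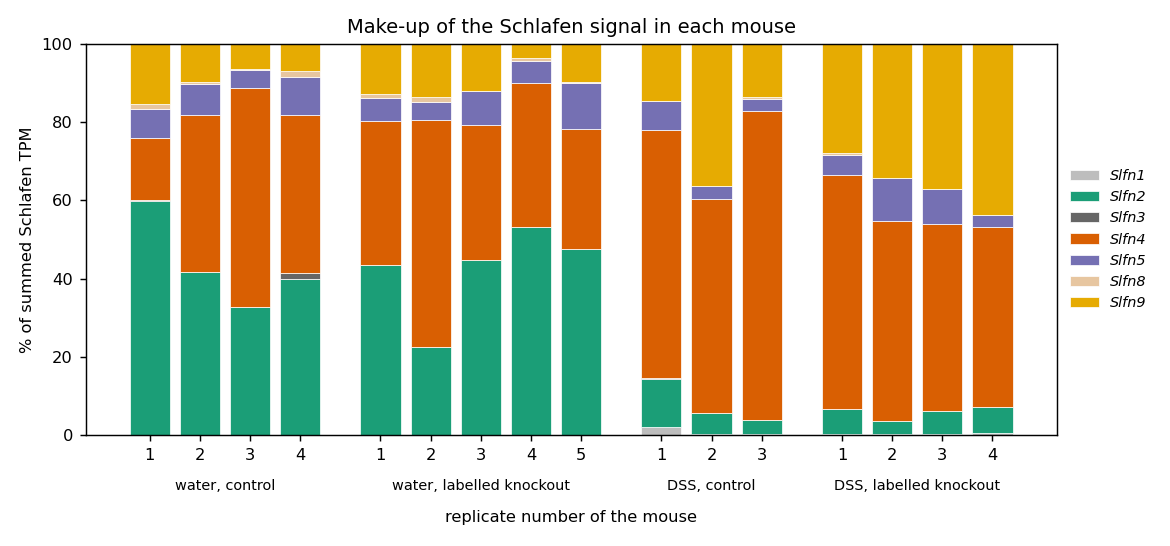
Share of each Schlafen gene (y axis, % of the summed TPM of the 7 genes) in each mouse (x axis, replicate number within its group). Slfn2 takes 22.6% to 59.8% of the bar in water-treated mice and 3.27% to 12.3% after DSS, and Slfn4 takes the most of any member in all 7 DSS-treated mice.

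Among the short members, Slfn2, which keeps T cells quiescent and is expressed in macrophages, was the gene with the lower level after DSS. In water-treated controls it was at 25.0, 25.3, 27.3 and 24.2 TPM, and in water-treated mice labelled knockout at 16.4, 7.37, 22.6, 50.2 and 21.9 TPM. After DSS it was at 12.6, 3.20 and 2.34 TPM in controls and at 2.84, 1.35, 2.50 and 2.89 TPM in mice labelled knockout. The treatments overlapped through a single DSS-treated control at 12.6 TPM and a single water-treated mouse at 7.37 TPM. The mean of log2(TPM + 1) was 2.46 lower after DSS than in water-treated mice (difference -2.46, and -2.75 after rescaling all 16 mice to a common median ratio). That difference stood at percentile 2.88 of all genes with a mean of 1 TPM or more, whose median difference was 0.32 as deposited and 0.01 after rescaling.

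Myeloid transcripts were also lower after DSS. The water-treated mouse with the lowest Slfn2 also had the lowest summed myeloid markers (1267 TPM), and that with the highest Slfn2 had the highest (2879 TPM). By the myeloid score, the mean log2(TPM + 1) of the list, other mice were lowest (5.980 against 5.985) and highest (7.06 against 6.78). Over the 9 water-treated mice Slfn2 and that score gave Pearson's r = 0.63 (permutation p = 0.0616, adjusted p = 0.605), with r = 0.15 within cage b. Of the 11 myeloid markers, 9 were lower in every DSS-treated than in every water-treated mouse, on both scales, against 4.16% of all genes as deposited and 6.96% after rescaling. C1qa, a complement component made by macrophages, was at a mean of 323 TPM in water-treated mice and 3.32 TPM after DSS, and Lyz2 (lysozyme) at 792 and 21.3 TPM. Cd14, the lipopolysaccharide co-receptor, was at 131 and 72.8 TPM and is not among the 9, since its treatments overlapped (69.2 to 239 against 57.3 to 110.5 TPM). The DSS-treated control with 12.6 TPM of Slfn2 had the highest summed myeloid (188 TPM) and neutrophil (1929 TPM) markers of the 7 DSS-treated mice. Its myeloid score of 2.45 was below the highest of them, 2.72. Without that mouse the difference of Slfn2 was -2.74. Within the 7 DSS-treated mice no relation of Slfn2 to the myeloid score was shown (Pearson's r = 0.10, exact permutation p = 0.876, adjusted p = 0.986, and Spearman's rho = -0.43, exact permutation p = 0.354, adjusted p = 0.861), with r = 0.62 without the 2 farthest mice. The part of these cells in the level of Slfn2 was not tested.

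Slfn1, the short member for which thymocyte growth arrest was described, was barely detected. It was listed at 0 in 5 of 9 water-treated mice and at no more than 0.082 TPM in the others. After DSS it was above 0 in all 7 mice, between 0.0755 and 0.231 TPM in 6 of them and at 2.18 TPM in the same control mouse that had the highest Slfn2. These are traces, and the number of reads behind a TPM value is not given in the tables.

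Among the intermediate members, Slfn4, which is induced in myeloid cells and is also on the goblet-cell gene list that the study used, was the most abundant. In water-treated controls it was at 6.69, 24.6, 46.5 and 24.6 TPM, and in water-treated mice labelled knockout at 13.9, 18.8, 17.4, 34.7 and 14.1 TPM. After DSS it was at 65.1, 33.5 and 51.1 TPM in controls and at 25.8, 21.2, 20.8 and 20.3 TPM in mice labelled knockout. The genotypes interleaved in water-treated mice, and so did those of the other members, where 0.67% of all genes tested lay wholly higher and 0.878% wholly lower in mice labelled knockout. After DSS all 4 mice labelled knockout were below all 3 controls in Slfn4, which held for 1.55% of all genes tested, while 2.13% lay wholly above. The DSS-treated mice labelled knockout (20.3 to 25.8 TPM) were within the range of the water-treated mice (6.69 to 46.5 TPM), also after rescaling (17.3 to 21.6 against 7.17 to 51.0). Of the 3 DSS-treated controls, 2 were above that range as deposited, and 1 after rescaling.

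Within a library, Slfn4 held a median rank of 1301 from the top in DSS-treated controls, of 2928 in DSS-treated mice labelled knockout, of 2154 in water-treated controls and of 3055 in water-treated mice labelled knockout. On the log2(TPM + 1) scale the difference between genotypes (labelled knockout minus control) was -1.10 after DSS with an SE of 0.22, and it ranged from -1.36 to -0.89 when each mouse was left out. It was -1.08 with cage in the model. In cage d the controls averaged 49.3 TPM (n = 2) and the mice labelled knockout 20.7 TPM (n = 3), and in cage c the single control was at 51.1 TPM and the single mouse labelled knockout at 25.8 TPM. Controls stood above mice labelled knockout in each cage. That order follows from the separation of all DSS-treated mice given above and is no further evidence.

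The tables list a pair of transcripts for Slfn4. ENSMUST00000000208.12 was at 41.1, 28.8 and 30.8 TPM in DSS-treated controls and at 14.7, 12.5, 11.6 and 15.7 TPM in DSS-treated mice labelled knockout. ENSMUST00000167596.1 was at 23.9, 4.63 and 20.3 TPM and at 11.1, 8.65, 9.19 and 4.56 TPM, respectively. The genotypes were apart in the first transcript and overlapped in the second. In water-treated mice the first was at 13.7 ± 5.03 TPM in controls (SD, n = 4) and 13.8 ± 6.67 TPM in mice labelled knockout (n = 5). The second ranged from 0 to 32.9 TPM there, and its 32.9 TPM made up most of the 46.5 TPM of the highest control. The split between them is uncertain, because 3.31% of the 31-base windows of the first and 0.953% of those of the second occur in no other transcript.

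Other transcripts also differed between the mice with much Slfn4. The DSS-treated control with 65.1 TPM of Slfn4 held the most neutrophil markers of all mice. Of its 1929 TPM the calprotectin subunits S100a8 and S100a9 were 904 and 935 TPM. The control with 51.1 TPM held the most goblet markers (7457 TPM summed over 7 genes, against 1136 to 2163 TPM in the other DSS-treated mice). The control with 33.5 TPM had 1242 TPM of goblet and 299 TPM of neutrophil markers, within the range of the mice labelled knockout for neutrophil (260 to 520 TPM) and goblet (1136 to 1832 TPM) markers alike. Over the 7 DSS-treated mice Slfn4 and the goblet score correlated with Pearson's r = 0.63 and Spearman's rho = 0.71. These values hold the genotype difference of Slfn4 that was in view when the family was chosen. They are therefore a description, and no p-value is given. Without the 2 mice farthest from the median of the goblet score r was 0.58, and within genotypes it was 0.36. A relation of Slfn4 to the goblet score was thus not shown, and the part of neutrophil transcripts was not tested.

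Slfn3, next to Slfn4 on the chromosome and the member linked to enterocyte differentiation, was close to 0. It was listed at 0 in 11 of 16 mice, reached 0.986 TPM in a single water-treated control and 0.192 TPM in a single DSS-treated control, and was at 0.0314 TPM or less elsewhere. Since Slfn3 shares windows with Slfn4, these traces are uncertain.

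**Figure D3:**
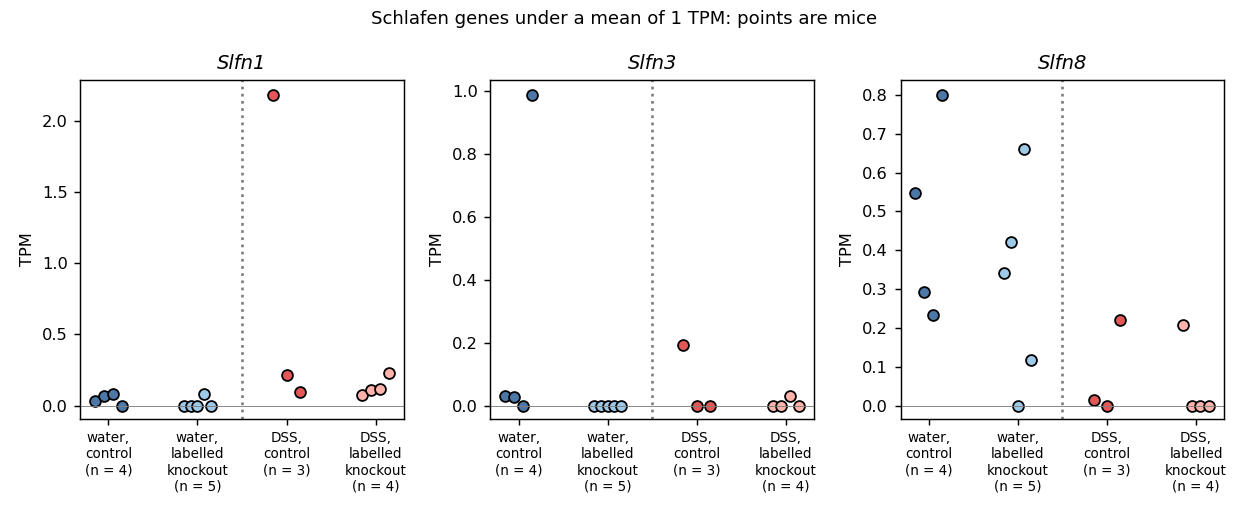
TPM of Slfn1, Slfn3 and Slfn8 (y axes, linear) in each mouse, by treatment and labelled genotype (x axes). Apart from Slfn1 in a single DSS-treated control (2.18 TPM) all values are below 1 TPM, and Slfn8 is highest in water-treated mice.

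Among the long members, Slfn9 was the gene that stood higher after DSS. In water-treated controls it was at 6.44, 5.99, 5.28 and 4.28 TPM and in water-treated mice labelled knockout at 4.84, 4.43, 6.05, 3.48 and 4.51 TPM. After DSS it was at 15.04, 22.2 and 8.79 TPM in controls and at 12.0, 14.2, 16.035 and 19.3 TPM in mice labelled knockout. Every DSS-treated mouse was above every water-treated mouse, as deposited and after rescaling (7.08 to 19.5 against 3.85 to 6.91). Of all genes 18.9% did so as deposited and 4.52% after rescaling. The mean of log2(TPM + 1) was 1.41 higher after DSS, at percentile 97.6 of all genes, and 1.09 higher after rescaling. It ranged from 1.32 to 1.52 when each mouse was left out. Transcript ENSMUST00000038211.12 carried nearly all of the signal, with 14.7 ± 5.83 TPM in DSS-treated controls (SD, n = 3) and 5.03 ± 0.855 TPM in water-treated controls (n = 4).

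Slfn8, whose promoter stretch is so like that of Slfn9, had its higher values in water-treated mice. It was at 0.547, 0.292, 0.234 and 0.800 TPM in water-treated controls and at 0.342, 0.421, 0, 0.661 and 0.117 TPM in water-treated mice labelled knockout. After DSS it was at 0.0135, 0 and 0.220 TPM in controls, and at 0.206 TPM in 1 mouse labelled knockout and at 0 in the other 3. The treatments overlapped, and all values were below 1 TPM.

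Slfn5, a long member induced by type I interferon, overlapped in level across all groups. It was at 3.01, 4.77, 3.89 and 5.95 TPM in water-treated controls and at 2.28, 1.49, 4.32, 5.40 and 5.31 TPM in water-treated mice labelled knockout. After DSS it was at 7.44, 2.12 and 2.01 TPM in controls and at 2.18, 4.56, 3.89 and 1.38 TPM in mice labelled knockout. The difference between treatments on the log2(TPM + 1) scale was -0.27, or -0.53 after rescaling. Its highest value, 7.44 TPM, was in the DSS-treated control that also had the highest Slfn1, Slfn2 and Slfn4 of the DSS-treated mice.

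Genotype was tested in the uninjured, water-treated mice, where 4 of 7 members passed the filter of a mean of 1 TPM. By limma with Benjamini-Hochberg adjustment over 11046 genes, 0 of these 4 members were called, against 0.00905% of all genes, and 0 of 4 were at an unadjusted p under 0.05, against 5.28% of all genes. For Slfn4 the log2 difference (labelled knockout minus control) was -0.17 (SE 0.48, 95% interval -1.26 to 0.92, limma adjusted p = 0.958). Its sign rested on the water-treated control at 46.5 TPM, without which the difference was 0.20, and the control at 6.69 TPM moved it as much the other way (-0.68 without that mouse). For Slfn2 it was -0.34 (SE 0.42, interval -1.29 to 0.62, limma adjusted p = 0.900), and -0.0049 without the mouse labelled knockout at 7.37 TPM. For Slfn5 it was -0.25 (SE 0.32, interval -0.96 to 0.47, limma adjusted p = 0.900) and for Slfn9 -0.20 (SE 0.16, interval -0.57 to 0.17, limma adjusted p = 0.865). The intervals of Slfn2 and Slfn4 reach beyond a log2 difference of 1 in the direction of lower levels, so a difference of that size is within the error of these mice.

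After DSS the other measured members had differences smaller than that of Slfn4. The log2 difference of Slfn2 was -0.79 (SE 0.48), and -0.17 without the control at 12.6 TPM. That of Slfn5 was -0.18 (SE 0.45) and that of Slfn9 0.07 (SE 0.29), and both changed sign when single mice were left out (-0.44 to 0.31 for Slfn5, -0.25 to 0.37 for Slfn9). For comparison, limma called 0.00918% of all genes in this contrast. The difference between the genotype effects after DSS and in water-treated mice was -0.93 (SE 0.62) for Slfn4, -0.45 (SE 0.68) for Slfn2, 0.07 (SE 0.57) for Slfn5 and 0.27 (SE 0.33) for Slfn9, in a contrast where limma called 0.00889% of all genes.

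**Figure D4:**
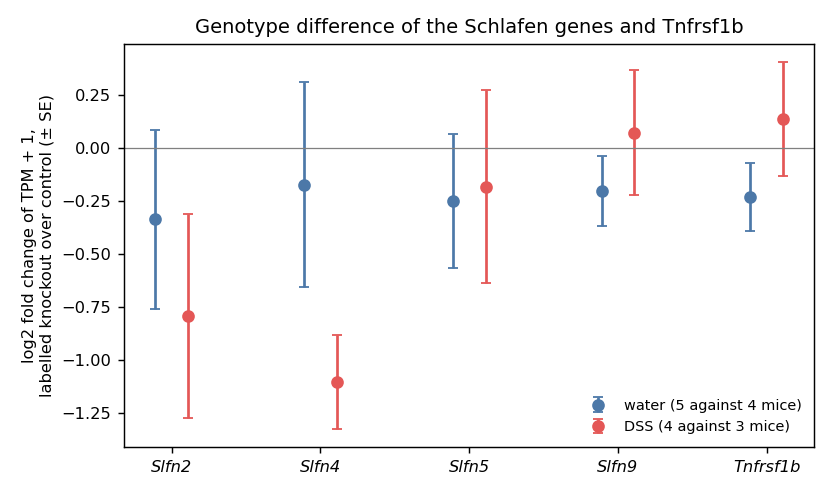
Log2 difference of TPM + 1 between mice labelled knockout and controls (y axis) with its standard error, for the 4 measured Schlafen genes and Tnfrsf1b (x axis), in water-treated (blue) and DSS-treated mice (red). The value of Slfn4 after DSS, -1.10 with an SE of 0.22, is the lowest, and that of Tnfrsf1b after DSS is 0.14.

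The interferon pathway, which induces the family elsewhere, was read from lists chosen by role. Of 7 interferon ligands, only Ifng (above 0 in 4 of 9 water-treated and 1 of 7 DSS-treated mice, up to 2.18 TPM) and Ifnb1 (0.791 TPM in a single water-treated mouse) were listed above 0. All 6 receptor genes were expressed. Ifngr1, the ligand-binding chain for interferon gamma, was at 101 ± 4.57 TPM in water-treated mice (SD, n = 9) and 98.2 ± 6.26 TPM after DSS (n = 7), but after rescaling it was lower in every DSS-treated mouse (83.2 ± 6.48 against 110 ± 5.19). Il10rb, shared with the interferon lambda receptor, was at 33.3 ± 3.20 TPM in water-treated mice and 34.6 ± 4.58 TPM after DSS, and at 36.2 ± 3.58 and 29.4 ± 4.19 after rescaling, with overlap on both scales. Ifngr2, the other chain of the interferon gamma receptor, was higher in every DSS-treated mouse as deposited (35.5 ± 1.74 against 27.3 ± 2.30 TPM) but not after rescaling (30.1 ± 1.86 against 29.7 ± 2.38). Of the 6 receptor genes, 1 was thus wholly higher as deposited and 1 wholly lower after rescaling. Of all genes, 18.9% were wholly higher and 4.16% wholly lower after DSS as deposited, and 4.52% and 6.96% after rescaling.

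Of 8 signalling genes, none was apart between treatments on either scale. The transcription factor Irf1 was at 69.0 ± 8.26 TPM in water-treated mice and 78.2 ± 19.1 TPM after DSS, the kinase Jak1 at 32.1 ± 4.34 and 37.7 ± 1.93 TPM, and the transcription factor Irf7 at 19.2 ± 6.30 and 13.2 ± 3.86 TPM. Of 24 interferon targets outside the family, 17 had a mean of 1 TPM or more. Their median log2 difference between treatments was 0.20 as deposited and -0.09 after rescaling, beside 0.32 and 0.01 for all genes. Slfn9 (1.41 and 1.09) and Slfn2 (-2.46 and -2.75) thus lay on opposite sides of that median. Bst2 (tetherin) was the single target of the 17 lower in every DSS-treated mouse, at 13.2 ± 2.96 against 61.7 ± 28.8 TPM. Of all genes, 4.16% were so as deposited and 6.96% after rescaling, so 1 of 17 is near the share of all genes. Oas1a, a sensor of double-stranded RNA, was at 20.4 ± 6.62 and 23.8 ± 2.47 TPM, and the guanylate-binding protein gene Gbp2 at 11.1 ± 12.2 and 13.3 ± 6.65 TPM.

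The interferon lists were chosen with earlier results of these data known, so their genotype differences after DSS are given without a test. In water-treated mice limma called 0 of 6 receptor, 0 of 7 signalling and 0 of 16 target genes between genotypes. At an unadjusted limma p under 0.05 were 0 of them, beside 5.28% of all genes. After DSS the log2 differences of the 17 targets (labelled knockout minus control) ran from -1.04 (SE 0.26, the ubiquitin-like Isg15) to -0.08 (SE 0.47, Oasl2). Their median was -0.34, beside a median over all genes of 0.02. The medians of the receptor and signalling genes after DSS were 0.03 and -0.09. The 16 targets tested in water-treated mice had a median of 0.03, beside 0.00 for all genes. The summed level of the 24 targets was 104 to 161 TPM in DSS-treated controls and 69.6 to 109 TPM in DSS-treated mice labelled knockout, which overlapped. Slfn4 (-1.10) lay below that median of -0.34 after DSS.

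The levels of all 7 members were set against the scores (mean log2(TPM + 1)) of the T-cell, myeloid and goblet lists within each treatment, 42 relations in all. After adjustment 0 of the 42 had p under 0.05, with 3 under 0.05 before it by Pearson's r, none of them of Slfn4. The adjustment ran over all 42, including those of Slfn4 after DSS, which are not read as tests. By Spearman's rho, apart from Slfn4 after DSS, only Slfn3 with the goblet score in water-treated mice was under 0.05 before adjustment. It gave rho = -0.78 (permutation p = 0.0204, adjusted p = 0.429) and r = -0.55, with Slfn3 listed at 0 in 6 of those 9 mice. The closest myeloid relations were those of Slfn5 and Slfn2 over the 9 water-treated mice. Slfn5 gave Pearson's r = 0.70 (permutation p = 0.0367, adjusted p = 0.605) and Spearman's rho = 0.65 (permutation p = 0.0663, adjusted p = 0.617). Without the 2 farthest mice r was 0.61, and it was 0.64 within cage a and 0.03 within cage b. Slfn2 gave r = 0.63 (permutation p = 0.0616, adjusted p = 0.605) and rho = 0.45 (permutation p = 0.229, adjusted p = 0.861), with r = 0.82 without the 2 farthest mice, 0.71 within cage a and 0.15 within cage b. Slfn8, at traces below 1 TPM, gave with the T-cell score in water-treated mice r = 0.68 (permutation p = 0.0477, adjusted p = 0.605) and rho = 0.63 (permutation p = 0.0772, adjusted p = 0.617), with r = 0.72 without the 2 farthest mice, 0.75 within cage a and 0.87 within cage b. Slfn9 went against the goblet score after DSS with r = -0.80 (exact permutation p = 0.0319, adjusted p = 0.605) and rho = -0.54 (exact permutation p = 0.236, adjusted p = 0.861), with r = -0.91 within genotypes and -0.22 without the 2 farthest mice, so that over all 7 mice it rested on them. Slfn4 and the T-cell score after DSS gave rho = -0.89 and r = -0.69, with r = -0.89 without the 2 farthest mice. Within genotypes r was -0.22, at summed T-cell markers of only 0.1001 to 4.23 TPM. No p-value is given for Slfn4 after DSS, because its genotype difference was in view when the family was chosen. For every member, the permutations behind the p-values hold neither genotype nor cage fixed.

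**Figure D5:**
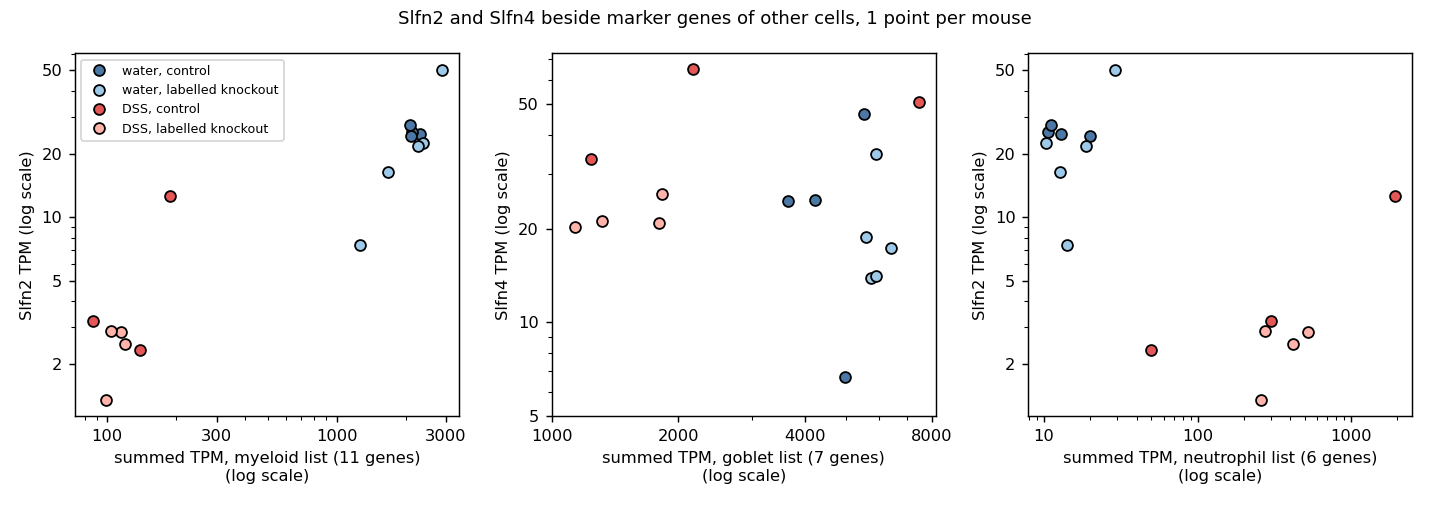
Slfn2 beside the summed myeloid markers, Slfn4 beside the summed goblet markers and Slfn2 beside the summed neutrophil markers (all axes TPM on a log scale), 1 point per mouse. Slfn2 and myeloid markers are both lowest after DSS, and a single DSS-treated control with 1929 TPM of neutrophil markers has the most Slfn2 (12.6 TPM) of the DSS-treated mice.

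Genes that varied most like the members were sought among 10159 genes by the correlation of deviations from the 4 group means over 16 mice, as a description. For Slfn4 they were Slc20a1, a phosphate transporter (r = 0.87), P4ha1, a collagen prolyl hydroxylase subunit (0.84), Tmem43 (0.84), Ggcx, the vitamin K-dependent carboxylase (0.84), and Gcnt1, which branches mucin O-glycans (0.84). Ggcx was at 0.87 within water-treated but 0.46 within DSS-treated mice. How high the top of 10159 correlations reaches by chance was not tested. For Slfn2 they were Pde4b, a cyclic AMP phosphodiesterase (0.90), and Cd14 (0.90), for Slfn5 Cd93 (0.94) and the kinase Lats2 (0.93), and for Slfn9 the ribosome assembly factor Rpf2 (0.88) and the mismatch repair gene Pms1 (0.87). Among the members themselves, Slfn2 and Slfn5 deviated most alike (r = 0.65) and Slfn4 and Slfn9 most unlike (r = -0.43). Slfn2 and Slfn4 had r = 0.35, Slfn4 and Slfn5 0.33, Slfn2 and Slfn9 0.02 and Slfn5 and Slfn9 -0.13.

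Beyond the 7 members, the remaining Schlafen-named genes were near 0. Slfn14, a long member known from platelets, was listed at 0 in 13 of 16 mice and reached 0.0537 TPM, and Slfnl1 was listed at 0 in 11 of 16 mice and reached 0.290 TPM.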

How the data were processed

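Stranded polyA libraries (single reads of 75 bases) of sorted EpCAM+ cells were quantified by the authors with kallisto and compared between genotypes with sleuth. The build in the submitters' processing notes is mm10. The authors deposited 2 tables of TPM per transcript and mouse, normalized apart, so levels after DSS and in water are set side by side without a test. Depth per mouse is not in the tables, and the listed TPM summed to 487469 to 861109 per mouse. The deposited natural log values are the authors' mean of estimated counts over the mice of a table. For the Slfn4 transcripts their antilogs were 447 and 207 after DSS and 138 and 26.7 in water. Deposited p-values, q-values and log2 ratios of genotype were not used.

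Lines repeated with equal values were dropped (385 of 29373 per table), and TPM were summed per symbol. Genotype was fitted within a treatment, and as the difference between treatments, by limma 3.58.1 (R 4.3.3) on log2(TPM + 1) with a variance trend, for genes averaging 1 TPM or more, with p-values adjusted over all genes by Benjamini-Hochberg and calls at an adjusted p under 0.05. These fold changes understate changes of low genes. In simulated data, where many genes were changed at once, a log2 change of 1 was recovered in 33% of genes after DSS and 49.5% in water. One of 2 was recovered in 74.5% and 81%. The adjustment is stricter where few genes change, so these shares overstate the recovery of a lone changed gene. Correlations were tested by two-sided permutation of pairings (exact for 7 mice, resampled for 9). Rescaling used median-of-ratios factors over 16 mice. Sequence searches used Python 3.11.15.

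The members and lists were chosen with earlier results of these data known. Named were all members, Tnfrsf1b, the 3 genes of highest mean in water-treated mice of each pathway list, the leading markers, and the genes deviating most like a member. The marker lists not detailed otherwise summed to 4638 to 7590 TPM (8 epithelial genes), 0.1001 to 32.7 TPM (9 T-cell genes), 8.26 to 14270 TPM (6 B-cell genes), 69.7 to 470 TPM (6 stromal genes) and 2.02 to 11.6 TPM (3 endothelial genes) over all mice. Mice are separate animals.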

Additional observations from a re-analysis of the deposited data

Results flagged for a closer look

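Single mice stood apart within their group for several members, by the gap to the nearest mouse over the range of the group (Dixon's 95% limits). Of 23 groups of 4 or 5 mice examined, counted over the members and Tnfrsf1b, 6 gave such a value. A rate of about 1 in 20 by chance is for normally spread values. It does not apply to the flagged values of Slfn1, Slfn3 and Slfn8, whose groups were otherwise at or near 0. The 6 of 23 are therefore not read as an excess. The DSS-treated controls (n = 3) were not examined. Low values near 0 are not independent of how few reads lie behind them.

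Slfn4 was at 34.7 TPM in a single water-treated mouse labelled knockout, with the other 4 at 13.9 to 18.8 TPM, and that mouse also had the highest Slfn2 (50.2 TPM) and the highest summed myeloid markers (2879 TPM). Slfn4 was at 25.8 TPM in a single DSS-treated mouse labelled knockout, from cage c, with the other 3, all from cage d, at 20.3 to 21.2 TPM. The same mouse held 0.206 TPM of Slfn8, which was listed at 0 in the other 3. Slfn3 reached 0.986 TPM in a single water-treated control and 0.0302 TPM in a single DSS-treated mouse labelled knockout. Slfn1 was at 0.0820 TPM in the water-treated mouse labelled knockout with the highest Slfn4 and at 0 in the other 4.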

How the results depend on the processing

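Of 216 genotype differences of the 4 measured members under the alternatives, 214 kept their side or moved by less than the spread between mice, as did 124 of 126 level differences between treatments over all 7 members. The difference of Slfn4 between genotypes in water-treated mice changed sign, to 0.042 with array quality weights and to 0.20 without control replicate 3, and ranged from -0.68 to 0.20 when each mouse was left out. The genes called after DSS (1) numbered 0 with a pseudocount of 0.1 TPM and without a filter, and 0 to 3 when each mouse was left out. In water-treated mice (1 called) they numbered 0 with a pseudocount of 0.1 TPM and with a mean of at least 5 TPM, 4 without a filter, 3 with all 4 groups in the fit and 1 to 2 when each mouse was left out. For the difference between treatments (1 called) they numbered 0 with a mean of at least 5 TPM, 2 after rescaling and 1 to 3 when each mouse was left out. With the replicate number as a block, all 3 comparisons called 0 genes. Same-numbered mice are different animals, whose deviations correlated at -0.20 to 0.09, so the numbers do not pair them. With a pseudocount of 0.1 TPM the log2 level difference after DSS was 1.37 for Slfn1 (0.36 with 1 TPM) and -1.52 for Slfn8 (-0.36). Without a filter, limma adjusted p was 0.860 for each of Slfn1, Slfn3 and Slfn8 between genotypes in water-treated mice. The count of relations past the threshold was 0 under every alternative run, in both treatments. The cause of these changes was not tested. Groups of 3 to 5 mice, unknown depth and treatment confounded with cage limit all values.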
